A study of Caenorhabditis elegans with 48 samples.

Results

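The pnp-1 locus of Caenorhabditis elegans carried a broad domain of peaks in the intestine, of the Rb-like protein LIN-35 and of HPL-2, a protein of heterochromatin. The locus was taken as chromosome IV, 291817 to 297217 (5401 bp, WormBase release WS180 coordinates), and every deposited peak that overlaps it was collected. There were 27 such peaks among the 85924 peaks of 23 libraries, and 17 of them lay below the q-value of 0.001 that the study used as its threshold. The q-value is the false discovery measure that the peak caller PeakSeq gives each peak against input DNA. The locus was chosen by its peaks in these same libraries, and its borders are those of the single peak in intestinal LIN-35 replicate 1. Its width, its q-values and the tissues that lack a peak are therefore given as a description, with no test.

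pnp-1 (sequence name K02D7.1) encodes a purine nucleoside phosphorylase, an enzyme of purine salvage that splits nucleosides into a base and a sugar phosphate. In C. elegans it acts in the intestine, where its loss turns on the intracellular pathogen response, a set of genes induced by microsporidia and viruses. LIN-35 is the worm's pocket protein of the Rb family, EFL-1 and DPL-1 are the E2F and DP proteins it works with, and HPL-2 is an HP1-like reader of methylated histone H3. All of them belong to the SynMuv B group of genes, which keeps germline and other genes silent where they should not be expressed.

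Each library came from a strain in which 1 of these proteins, tagged at its end with GFP and FLAG, was made from an integrated transgene in the unc-119(ed3) background rescued by unc-119(+). The intestinal strains used the ges-1 promoter and were L1 larvae: LIN-35 (replicates 1 and 2), HPL-2 (replicates 1, 2 and 3), DPL-1 (replicates 1 and 2) and EFL-1 (replicates 2 and 3). The somatic strains used each gene's own promoter and were L1 larvae as well, with replicates 1 and 2 of LIN-35, DPL-1 and EFL-1. The germline strains used the pie-1 promoter in young adults for LIN-35 (replicates 2 and 3), DPL-1 (replicates 1 and 4) and EFL-1 (replicates 2 and 3), and LIN-35 was also driven by the mex-5 promoter (replicates 1 and 2). No strain is described as lacking the untagged protein, and chromatin came from whole animals. Each combination of protein and promoter was 1 strain, so strain and protein cannot be told apart, and neither can tissue and stage between germline and the L1 strains. The lists held 558 to 7556 peaks per library, of which 261 to 6165 had a q-value below 0.001. Read depth is not part of the peak lists and was not used here.

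The RefSeq gene table places pnp-1 between T21D12.7 on the lower side and swt-1 on the higher side, and swt-1 is named as a member of the SWEET sugar transporter family. By the study's own assignment of sites to genes, the pnp-1 transcript runs on the minus strand and lies wholly inside the locus. Its start lies nearer the middle of the locus and its end nearer the lower border.

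In the intestine, LIN-35, HPL-2 and 1 of 2 DPL-1 libraries had peaks at pnp-1, and EFL-1 had none. At a q-value below 0.001, 6 of 9 intestinal libraries held a peak: 2 of 2 for LIN-35, 3 of 3 for HPL-2, 1 of 2 for DPL-1 and 0 of 2 for EFL-1. The counts outside were 0 of 6 somatic and 0 of 8 germline libraries. Intestinal LIN-35 and HPL-2 peaks with no somatic or germline peak were also found in 1156 of the 13013 merged regions of the whole series (8.88%), so pnp-1 shared this pattern with many regions. The number rests on the long lists of replicate 1, since it was 127 without LIN-35 replicate 1 and 321 without HPL-2 replicate 1. With peaks in both LIN-35 and all 3 HPL-2 replicates, the count was 17 regions (0.131%), and pnp-1 was 1 of them. HPL-2 replicate 3 has no input of its own among the samples, and the study's table of libraries lists only the other HPL-2 replicates. Without it, 22 of 12300 merged regions (0.179%) held peaks of every remaining LIN-35 and HPL-2 replicate and no somatic or germline peak, pnp-1 among them.

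**Figure D1:**
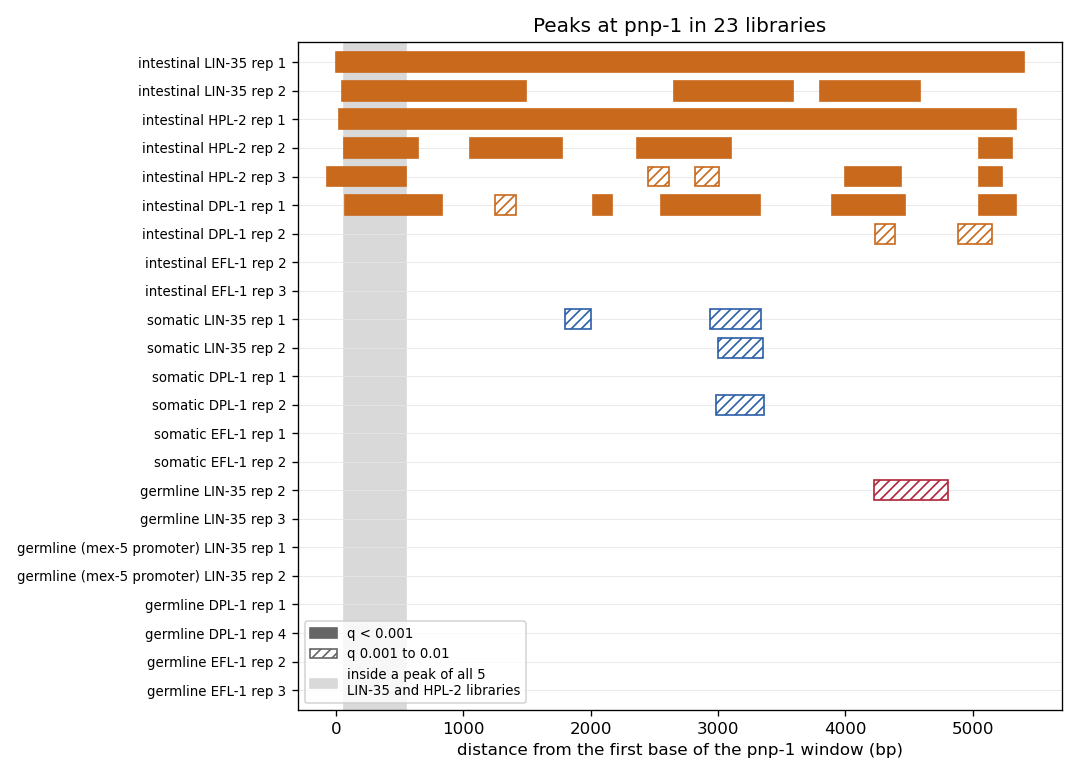
Every deposited peak at pnp-1, with 1 track per library and the distance from the first base of the locus in bp on the horizontal axis. Solid bars are peaks with q below 0.001 and hatched bars are weaker ones. The grey band is the 485 bp inside a peak of all 5 LIN-35 and HPL-2 libraries. Solid bars stand in 6 intestinal libraries only, and the 3 hatched somatic bars near 3000 bp nearly coincide.

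LIN-35 covered the whole domain in 1 piece in replicate 1. That peak ran from 291817 to 297217 with a q-value of 1.5e-280, the fifth smallest of the library's 6165 peaks below the threshold. In LIN-35 replicate 2 the same stretch was split into 3 peaks. The first ran from 291864 to 293308 (1445 bp, q = 1.6e-17), the next from 294472 to 295403 (932 bp, q = 3.94e-05) and the last from 295618 to 296401 (784 bp, q = 1.15e-11). Together they covered 58.5% of the locus, with gaps of 1163 and 214 bp.

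HPL-2 showed the same contrast between replicates. HPL-2 replicate 1 had 1 peak from 291837 to 297158 (5322 bp, q = 8.99e-153), which began 20 bp after and ended 59 bp before the LIN-35 replicate 1 peak. It covered 98.5% of the locus. HPL-2 replicate 2 had 4 peaks that covered 42.8%, at 291880 to 292460 (q = 8.39e-07), 292866 to 293593 (q = 1.32e-08), 294178 to 294919 (q = 5.53e-10) and 296867 to 297127 (q = 0.000422). HPL-2 replicate 3 had 3 peaks below the threshold, at 291746 to 292364 (q = 1.82e-08), 295816 to 296252 (q = 1.16e-05) and 296870 to 297048 (q = 0.000932), which covered 21.6%. It had another pair of weaker peaks in the middle, at 294265 to 294430 (q = 0.00669) and 294635 to 294820 (q = 0.00708). The covered share thus overlapped between the proteins, at 100 and 58.5% for LIN-35 and 98.5, 42.8 and 21.6% for HPL-2.

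DPL-1, the DNA-binding partner of E2F, was present in replicate 1 as 5 separate peaks that covered 47.1% of the locus. Its most significant peaks were at 295715 to 296281 (q = 4.77e-19), 294371 to 295143 (q = 6.46e-17) and 291884 to 292646 (q = 1.11e-09). Smaller ones lay at 296866 to 297155 (q = 1.82e-05) and 293834 to 293982 (q = 0.0008), and a sixth at 293062 to 293227 missed the threshold (q = 0.00333). DPL-1 replicate 2 had only peaks above the threshold, at 296053 to 296204 (q = 0.00744) and 296700 to 296969 (q = 0.00307), so the replicates of DPL-1 differed in the call. Replicate 1 had 6008 peaks below the threshold in all and replicate 2 had 1924.

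EFL-1, the E2F subunit, had no deposited peak of any q-value at pnp-1 in the 2 intestinal, 2 somatic and 2 germline libraries. No peak in a list means that PeakSeq called none there, and how much EFL-1 signal lay below its limit was not measured here. The intestinal EFL-1 lists held 1509 and 896 peaks below the threshold, the somatic ones 1221 and 3875 and the germline ones 2475 and 4708. The intestinal ones were shorter than the list of DPL-1 replicate 2 (1924), and the part of list length was not tested. Among the 100 LIN-35 replicate 1 peaks of 3000 bp or more, 25% had no EFL-1 peak below the threshold in any of the 6 libraries, and 13% had no somatic or germline peak at all.

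At q below 0.001, the outer borders recurred closely in the libraries that had a peak. The first base lay between 291746 and 291884 in all 6, a range of 138 bp (SD 51.9 bp, n = 6 libraries). The last base lay between 297048 and 297217 in 5 of them, a range of 169 bp (SD 61.5 bp, n = 5). The exception was LIN-35 replicate 2, whose last peak ended at 296401. With it the range was 816 bp (SD 307 bp, n = 6). From first to last base the domain thus spanned 4538 bp in that library and 5248 to 5401 bp in the other 5. In HPL-2 replicates 2 and 3 and DPL-1 replicate 1, the upper border rested on 1 short peak each, of 261, 179 and 290 bp. The q-values of these peaks were 0.000422, 0.000932 and 1.82e-05. None of them is below 1e-05, so the upper border and the span in these libraries depend on the threshold.

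Inside the domain, some pieces recurred and others did not. The stretch from 291880 to 292364 (485 bp) lay inside a peak of all 5 LIN-35 and HPL-2 libraries, and from 291884 on also inside a DPL-1 replicate 1 peak. All 6 libraries coincided nowhere else in the locus, and this part was 8.91% of its bases. The length shared by the LIN-35 and HPL-2 libraries depended on the split ones, and was 938 bp without HPL-2 replicate 2 and 1472 bp without HPL-2 replicate 3. By the study's placement of the transcript, this stretch lies beyond the end of pnp-1, not at its start. The transcript start itself lay under a peak of all 6 libraries once the weaker HPL-2 replicate 3 peaks were counted, and under 5 of them below the threshold. At least 5 libraries shared 30.5% of the bases, at least 3 shared 77.9% and at least 2 shared 98.9%.

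**Figure D2:**
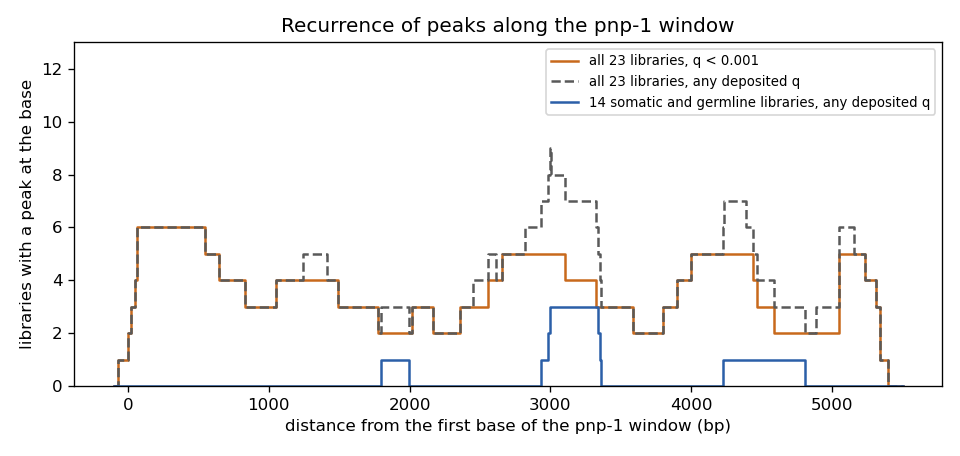
Number of libraries with a peak at each base, against the distance from the first base of the locus in bp. The solid orange line counts all 23 libraries at q below 0.001, the dashed line all deposited peaks, and the blue line the 14 somatic and germline libraries at any deposited q. The orange line reaches 6 near the lower border, and the dashed line reaches 9 near 3000 bp, where 3 somatic libraries join.

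The split libraries resembled each other more in some pairs than in others. DPL-1 replicate 1 and LIN-35 replicate 2 shared 2002 bp, which was 78.8% of the bases of DPL-1 replicate 1 and 63.3% of those of LIN-35 replicate 2. HPL-2 replicate 3 shared 1097 bp with DPL-1 replicate 1, 88.8% of its own bases and 43.2% of those of DPL-1. The 2 split HPL-2 replicates shared 664 bp, which was 28.7% of replicate 2 and 53.8% of replicate 3. These bases lay at the borders, 485 bp at the lower one and 179 bp from 296870 to 297048 at the upper one.

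The libraries differed in the length of their peak lists as well. LIN-35 replicate 1 had 6165 peaks below the threshold and replicate 2 had 1374, and HPL-2 replicates 1, 2 and 3 had 5294, 677 and 2579. The domain was in 1 piece in the longest LIN-35 and the longest HPL-2 list. For DPL-1 as well, replicate 1 had the longer list and the higher covered share (47.1 against 0%). HPL-2 replicate 3 had the longer list of the split HPL-2 replicates and the lower covered share, and DPL-1 replicate 1, with 6008 peaks, was split into 5. The part of list length and of depth in the splitting was not tested. In the sample titles, LIN-35 replicate 1 and all 3 HPL-2 replicates carry the same date and LIN-35 replicate 2 another, and the part of the date was not tested.

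Most other broad peaks had no peak or 1 peak in LIN-35 replicate 2 or HPL-2 replicate 2. At pnp-1 these libraries had 3 and 4 peaks, and it kept more of its length than most. Of the 100 LIN-35 replicate 1 peaks of 3000 bp or more, 43 had no LIN-35 replicate 2 peak, 34 had 1 and 3 had 3 or more. Replicate 2 covered 58.5% of the one at pnp-1, the 4th highest share, against a median of 10.7%. HPL-2 replicate 1 had 92 peaks of that width. Of these, 46 had no HPL-2 replicate 2 peak, 32 had 1 and 4 had 3 or more. For HPL-2 replicate 3 the counts were 16, 32 and 15. Replicate 2 covered 43.4% of the one at pnp-1, the 6th highest share, against a median of 1.09%, and replicate 3 covered 21.5%, a little under its median of 25.9%. Across proteins, HPL-2 replicate 1 covered 98.5% of the LIN-35 replicate 1 peak at pnp-1, against a median of 93.1% over the 100 broad peaks.

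By width, pnp-1 stood near the top of the lists in which it was unbroken. Its LIN-35 replicate 1 peak ranked 16th of 6165 (0.26% were at least as wide) and was 11.4 times the library's median width of 472 bp. Its HPL-2 replicate 1 peak ranked 19th of 5294 (0.359%) and was 12.7 times the median of 420 bp. In the split libraries the widest piece ranked 29th of 1374 for LIN-35 replicate 2, 83rd of 677 for HPL-2 replicate 2, 419th of 2579 for HPL-2 replicate 3 and 410th of 6008 for DPL-1 replicate 1.

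Merged over all libraries, the region ran from 291746 to 297217 (5472 bp) and held 17 peaks of 6 libraries. It ranked 34th by width of the 13013 merged regions, of which 0.261% were at least as wide, and the median was 410 bp. Among the 1156 regions with intestinal LIN-35 and HPL-2 peaks and no somatic or germline peak, it was the widest at this threshold. It ranked 4th of 814 with q below 1e-05, and with all deposited peaks it was no longer in this group, since weak somatic and germline peaks fell within it. The median width of the 1156 regions was 541 bp. By their definition only the intestinal EFL-1 libraries could hold a peak in them, and 1153 had none. The next widest were at chromosome I, 11674228 to 11679437 (5210 bp, 4 libraries), chromosome V, 11818066 to 11823143 (5078 bp, 5 libraries), and chromosome X, 4805667 to 4810685 (5019 bp, 4 libraries). None of these had a peak of LIN-35 replicate 2 or HPL-2 replicate 2. Among the 17 regions with peaks in both LIN-35 and all 3 HPL-2 replicates, the next widest was 3177 bp, on chromosome V at 20157209 to 20160385, and the median was 1425 bp.

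**Figure D3:**
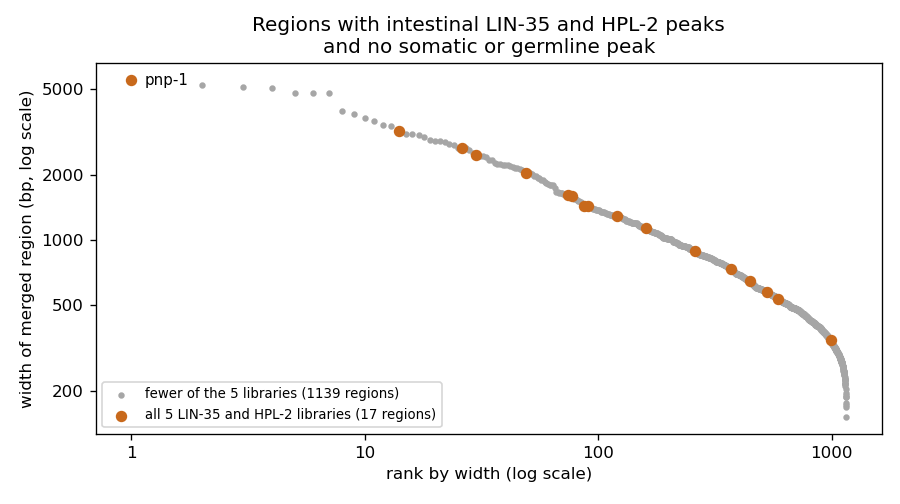
Width in bp of each of the 1156 merged regions with intestinal LIN-35 and HPL-2 peaks and no somatic or germline peak, against its rank by width, both on log scales. Orange points are the 17 regions with a peak in all 5 LIN-35 and HPL-2 libraries and grey points the rest. At this threshold pnp-1 is the widest at 5472 bp, and the next orange point lies at 3177 bp.

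When other tissues were not considered, wider intestinal domains existed. Of 4287 merged regions with LIN-35 and HPL-2 peaks in the intestine, pnp-1 ranked 29th. The 5 widest spanned 8183 to 10481 bp, at chromosome II, 14598168 to 14608648, 9598658 to 9607407 and 10541862 to 10550044, at chromosome V, 5838591 to 5847056, and at chromosome X, 4140681 to 4148991. Between 5 and 12 of the 14 somatic and germline libraries had a peak in each of these 5, and 1 to 5 of the 6 EFL-1 libraries did. At pnp-1 these numbers were 0 of 14 and 0 of 6. It was chosen with this known, and longer regions have more room for a peak, so no contrast is drawn.

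Weak peaks at pnp-1 were present outside the intestinal strains once all deposited peaks were read, up to a q-value of 0.01. Somatic LIN-35 replicate 1 had a peak at 294751 to 295153 (q = 0.00525), somatic LIN-35 replicate 2 at 294814 to 295165 (q = 0.0049) and somatic DPL-1 replicate 2 at 294797 to 295173 (q = 0.00288). Their first bases differed by at most 63 bp and their last by at most 20 bp, and they shared 340 bp. These 3 peaks lay inside the middle LIN-35 replicate 2 peak of the intestine, and by the study's placement they lie just upstream of the pnp-1 transcript start. Somatic LIN-35 replicate 1 had a further peak at 293616 to 293815 (q = 0.00149), inside the transcript. Germline LIN-35 replicate 2, from the pie-1 promoter, had a peak at 296044 to 296624 (q = 0.00122), close above the threshold. The nearest peak below the threshold was the one of HPL-2 replicate 3 with a q-value of 0.000932.

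The somatic strains include the intestine, and in chromatin of whole animals binding in few nuclei and weak binding in many cannot be told apart. Somatic DPL-1 replicate 1, both somatic EFL-1 libraries and the other 7 germline libraries had no deposited peak at pnp-1. Such weak peaks were not particular to this locus. Of the 1156 regions with intestinal LIN-35 and HPL-2 peaks and no somatic or germline peak, 27.2% held a weak peak of at least 1 somatic or germline library, as did 8 of the 10 widest. At least 4 such libraries, the number at pnp-1, were found in 0.952%. The median width of these regions was 541 bp against 5472 bp at pnp-1, and longer regions have more room for weak peaks, so no contrast is drawn.

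Around the domain, within 10 kb on each side, peaks were few and short. Below the threshold there were 6 peaks of 4 libraries, none before the lower border and all 6 after the upper one, on the side of swt-1. The widest was 389 bp. LIN-35 replicate 1 and HPL-2 replicate 1 of the intestine shared the site at 302144 to 302460 (q = 0.000507) and 302204 to 302461 (q = 5.53e-06), which began 4927 bp past the domain. They also shared 298774 to 299162, where LIN-35 replicate 1 had a q-value of 0.000584, and HPL-2 replicate 1 a weaker peak at 298781 to 299103 (q = 0.00635). Intestinal DPL-1 replicate 1 had peaks of its own at 302826 to 303052 (q = 0.000668) and 305181 to 305283 (q = 0.000478).

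The remaining peak below the threshold was somatic. Somatic LIN-35 replicate 2 had it at 306624 to 306896 (q = 2.36e-05), 9407 bp past the domain, and somatic LIN-35 replicate 1 (q = 0.00409) and intestinal HPL-2 replicate 1 (q = 0.00292) had weaker peaks at the same place. On the lower side, only weak peaks were found, all 3 more than 9 kb away. They belonged to somatic EFL-1 replicate 2 (282052 to 282338, q = 0.00114), somatic LIN-35 replicate 2 (282062 to 282278, q = 0.00279) and germline EFL-1 replicate 2 (282306 to 282424, q = 0.00146). In all, 17 deposited peaks of 7 libraries lay within 10 kb, 14 of them on the upper side.

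**Figure D4:**
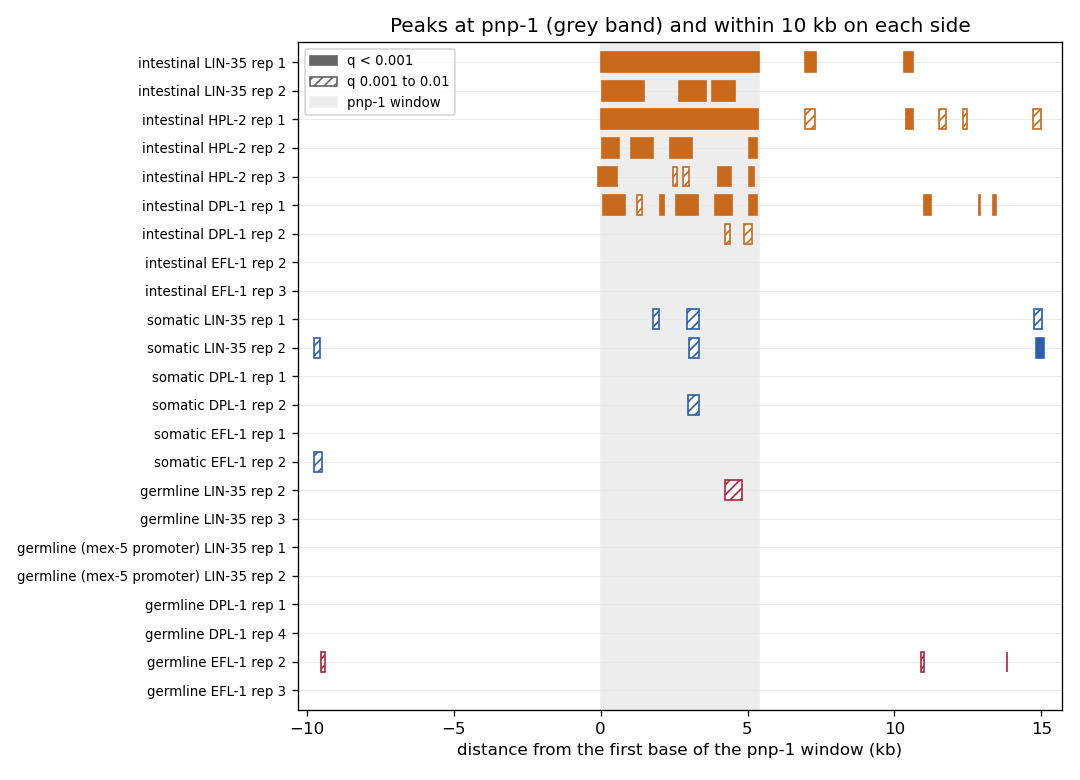
Deposited peaks at pnp-1 (grey band) and within 10 kb on each side, with 1 track per library and the distance from the first base of the locus in kb. Solid bars are peaks with q below 0.001 and hatched bars weaker ones. Apart from the edge of an HPL-2 replicate 3 peak, solid bars outside the band stand only to the right, in 3 intestinal libraries and in somatic LIN-35 replicate 2.

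Other genes of purine and nucleoside metabolism that had a site differed in which tissues bound them. Of 20 genes in the list, pnp-1 included, 18 lie outside chromosome V, and 7 of these had a site in the study's assignment. The share with a site over all 14976 protein-coding genes of the same chromosomes was 14.3%. The assignment covers sites of the study's tissue classes, and peaks at genes without such a site were not counted here. The nearest to pnp-1 in its libraries was cdd-1, a cytidine deaminase, with a region of 2157 bp on chromosome X (8210356 to 8212512). It held peaks of both LIN-35 libraries, HPL-2 replicates 1 and 2 and DPL-1 replicate 1 of the intestine, and of no somatic or germline library. pnp-1 itself was on the list because of its peaks, so its place among the 7 was fixed in advance. Apart from it, cdd-1 alone of the listed genes with a site had intestinal LIN-35 and HPL-2 peaks and no somatic or germline peak. Over all 2403 genes with a site, 86 (3.58%) had this pattern.

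The other 5 had other patterns. adah-1, an adenosine deaminase homolog, had 1 peak, of intestinal LIN-35 replicate 1. The region at gmps-1, a GMP synthetase, held peaks of 21 libraries, all 9 intestinal, all 6 somatic and 6 of 8 germline. The region at rnr-1, the large subunit of ribonucleotide reductase, held 6 intestinal, 6 somatic and 4 germline libraries. cdd-2, a second cytidine deaminase, was bound in 5 germline libraries and no other, and pyr-1, which encodes the first enzymes of pyrimidine synthesis, in 2 germline libraries.

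Of 10 genes of the intracellular pathogen response, 4 lie on chromosome V. Of the other 6, 1 had a site, pals-22, where the share over all genes was 14.3%. pals-22, like pnp-1, holds that response down in C. elegans. Its region on chromosome III (131599 to 132084, 486 bp) held peaks of 3 intestinal libraries, LIN-35, HPL-2 and DPL-1 replicate 1, and of all 6 somatic libraries, EFL-1 included. At q below 0.001 its tissues therefore differed from those at pnp-1, where 6 intestinal and 0 somatic libraries had a peak. With all deposited peaks, 3 somatic libraries had a peak at pnp-1 as well.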

How the data were processed

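Chromatin immunoprecipitation with an antibody to GFP was followed by sequencing in 23 libraries of 11 strains, out of 48 samples that include 22 inputs. For 3 libraries the reads of 2 runs went into 1 list. Per the file headers, the authors' lists came from PeakSeq, run on each library against input, and give each peak's start, end and deposited q-value (up to 0.01) in WS180 coordinates. No aligner is named in these sources, nor the input used for HPL-2 replicate 3, which has none of its own among the samples. Called peaks hold no signal height, so a broad peak and a row of narrow ones may differ only in how the caller joined them.

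Peaks with q below 0.001 were kept, and regions were formed from peaks of any libraries that shared 10 bp or more (Python 3.11.15, numpy 2.4.6). Overlaps were tested on simulated data against bedtools 2.31.1. The locus, gene lists and thresholds were chosen with earlier results of these data known, and the 3000 bp limit, the counts of weak peaks and the width comparison were added after the peaks had been seen. Named genes are pnp-1, its neighbours and list members with a site, and regions are named by position. Genes were placed by the study's assignment of sites, which was not used for chromosome V. RefSeq names (WBcel235) were used for names and order only. Alternatives were all deposited peaks, q below 1e-05, overlaps of 1 bp or 50% of the shorter interval, a wider surround of 50 kb and leaving out libraries. The width rank of pnp-1 under other thresholds and the counts without HPL-2 replicate 3 were added after the data were seen.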

Additional observations from a re-analysis of the deposited data

How the results depend on the processing

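The site width of 5472 bp lay between 5401 and 5472 bp without any 1 of the LIN-35 and HPL-2 libraries. Leaving out 1 library could change it little, because LIN-35 replicate 1 and HPL-2 replicate 1 each had a single peak there, of 5401 and 5322 bp. With all deposited peaks, 11 in place of 6 libraries had a peak at pnp-1, 3 of them somatic and 1 germline, while q below 1e-05 and the other overlaps left 6. Without 1 intestinal library, 5 or 6 libraries had a peak, which follows from the count of 6 itself.

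The shared stretch of 485 bp depended on single libraries. It lay between 485 and 1472 bp with 1 library left out, 938 bp without HPL-2 replicate 2 and 1472 bp without HPL-2 replicate 3. The regions with intestinal LIN-35 and HPL-2 peaks and no somatic or germline peak numbered between 127 and 1155 with 1 library left out, in place of 1156. The count was 127 without LIN-35 replicate 1 and 321 without HPL-2 replicate 1, and 17 with a peak in every replicate. pnp-1 was the widest of these without any 1 of the LIN-35 and HPL-2 libraries, ranked 4th of 814 with q below 1e-05, and left the group with all deposited peaks. The 6 peaks within 10 kb became 17 with all deposited peaks, 1 with q below 1e-05 and 98 with 50 kb on each side. Each of these settings changes only which peaks or libraries are read, or how far from the locus. No paired analysis was possible because the result comes from no test.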
